A study of Mus musculus with 4 samples.

Results

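Clusters of separate binding regions of the Flag-tagged Isl1-Lhx3 fusion were examined in mouse iMN-ESCs, embryonic stem cells of the A172LoxP line in which Dox switches on a transgene for the fusion. They were chosen by position and by ChIP score: of the peaks in a region, the peak with the highest ChIP score was kept, and a kept peak was counted as clustered when its maximum lay within 10 kb of the kept peak of another region. Of 2301 kept nuclear peaks, 261 (11.3%) were clustered, and they formed 122 clusters. Being chosen that way, their number, spacing and scores are described here without a test.

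The study compared Flag ChIP-seq libraries of cells with Dox at 2 µg/mL (n = 2) and without Dox (n = 2). All 4 libraries came from cells that carry the transgene. Embryoid bodies first received only retinoic acid (0.5 µM, 2 days), Dox was then added or left out for 4 days while retinoic acid went on, and LIF (1000 units/mL) was given over the last 16 hours. No label says whether the numbered sets were separate cultures. Per the labels, stable transfectants were selected with neomycin, and the protein bound is a fusion, not native Isl1 and Lhx3. The deposited list gives a ChIP score, a background score and a tag count without a value per library, so the depth of each library is unknown and no difference between libraries could be measured. No expression was measured, so the cell type could not be checked against marker genes.

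The LIM-homeodomain factors Isl1 and Lhx3 specify spinal motor neurons as parts of 1 complex, held together by adaptors that bind LIM domains. Homeodomains bind short AT-rich cores such as ATTA, and a pair of homeodomains can bind a palindrome such as TAATTA or cores at fixed spacings. Enhancers of developmental genes often hold several bound elements spread over some kilobases, and a peak list shows these as neighbouring regions.

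The cluster with most regions lay downstream of the start of Spry2, an inhibitor of receptor tyrosine kinase and FGF signalling, with 6 regions over 22.64 kb of intergenic sequence. Its windows are shown because it has the most regions. They differ widely in their homeodomain cores although they lie next to each other. Each sequence is 200 bases of mm9 centred on a peak maximum, with every ATTA or TAAT in capitals.
Spry2, chr14:106237633-106237832, plus strand, ChIP score 57.54: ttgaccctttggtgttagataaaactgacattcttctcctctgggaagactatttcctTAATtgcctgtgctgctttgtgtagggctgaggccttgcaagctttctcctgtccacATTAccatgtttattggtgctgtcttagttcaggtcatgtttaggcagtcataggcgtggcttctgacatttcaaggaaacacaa
Spry2, chr14:106241227-106241426, plus strand, ChIP score 41.75: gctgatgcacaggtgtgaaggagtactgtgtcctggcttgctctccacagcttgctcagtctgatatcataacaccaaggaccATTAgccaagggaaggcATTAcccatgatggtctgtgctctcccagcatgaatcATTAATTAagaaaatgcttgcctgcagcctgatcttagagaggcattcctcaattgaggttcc
Spry2, chr14:106250678-106250877, plus strand, ChIP score 40.68: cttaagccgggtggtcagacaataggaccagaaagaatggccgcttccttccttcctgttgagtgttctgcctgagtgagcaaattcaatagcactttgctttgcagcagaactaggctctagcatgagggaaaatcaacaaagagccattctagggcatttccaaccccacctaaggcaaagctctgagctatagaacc
Spry2, chr14:106257963-106258162, plus strand, ChIP score 33.19: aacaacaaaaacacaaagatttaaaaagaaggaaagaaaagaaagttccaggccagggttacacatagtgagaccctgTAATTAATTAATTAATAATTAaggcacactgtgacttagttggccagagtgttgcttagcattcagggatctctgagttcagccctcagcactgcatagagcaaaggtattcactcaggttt
Spry2, chr14:106259594-106259793, plus strand, ChIP score 44.7: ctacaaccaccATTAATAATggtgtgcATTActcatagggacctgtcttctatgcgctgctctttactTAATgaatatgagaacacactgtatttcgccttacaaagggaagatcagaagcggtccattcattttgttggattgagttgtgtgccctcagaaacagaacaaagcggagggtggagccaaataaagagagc
Spry2, chr14:106260270-106260469, plus strand, ChIP score 30.78: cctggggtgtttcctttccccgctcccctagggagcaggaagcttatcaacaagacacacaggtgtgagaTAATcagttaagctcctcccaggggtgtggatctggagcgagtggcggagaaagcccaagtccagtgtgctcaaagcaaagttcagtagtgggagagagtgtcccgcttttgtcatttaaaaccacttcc

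The 6 Spry2 windows held 2, 5, 0, 9, 5 and 1 cores in genome order. TAATTA was present in the second and in the fourth, which held 4 copies in a single AT-rich run. The fourth peak, the richest in cores, had a ChIP score of 33.19, and the first, with 2 cores and the relaxed STAT site TTCNNNGAA, had the highest score of the cluster, 57.54.

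A second cluster, of 4 regions over 6.963 kb, held a peak of score 142.92, exceeded by only 2 other clustered peaks. It lay on chromosome 14 in intergenic sequence. The nearest annotated start was that of a small nucleolar RNA, SNORA17, and the nearest start annotated as coding, Rpl13-ps3, was over 100 kb away. These windows are shown because the cluster came next by number of regions and then by highest score. Of the 4 windows, 3 hold TAATTA.
SNORA17 cluster, chr14:59275510-59275709, plus strand, ChIP score 66.11: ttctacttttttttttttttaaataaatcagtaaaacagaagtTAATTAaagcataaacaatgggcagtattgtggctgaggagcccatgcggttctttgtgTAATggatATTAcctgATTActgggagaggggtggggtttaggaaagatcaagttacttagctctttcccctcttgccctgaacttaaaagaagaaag
SNORA17 cluster, chr14:59276608-59276807, plus strand, ChIP score 142.92: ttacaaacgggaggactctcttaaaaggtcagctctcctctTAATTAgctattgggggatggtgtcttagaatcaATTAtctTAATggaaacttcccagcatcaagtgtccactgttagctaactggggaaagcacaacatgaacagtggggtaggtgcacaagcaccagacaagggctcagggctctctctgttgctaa
SNORA17 cluster, chr14:59282100-59282299, plus strand, ChIP score 30.78: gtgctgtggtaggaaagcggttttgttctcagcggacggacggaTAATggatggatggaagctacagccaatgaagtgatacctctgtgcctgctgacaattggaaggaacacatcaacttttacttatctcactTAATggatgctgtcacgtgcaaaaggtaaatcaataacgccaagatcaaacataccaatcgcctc
SNORA17 cluster, chr14:59282473-59282672, plus strand, ChIP score 50.85: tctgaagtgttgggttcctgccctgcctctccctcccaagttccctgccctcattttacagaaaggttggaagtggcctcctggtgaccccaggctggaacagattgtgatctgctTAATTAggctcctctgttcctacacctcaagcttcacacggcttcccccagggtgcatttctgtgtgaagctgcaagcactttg

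The strongest of these windows held TAATTA and, further along, ATTA and TAAT with 3 bases between. The weakest held 2 separate TAAT cores and no TAATTA. Its maximum lay only 373 bp from that of the fourth region, the closest spacing of any neighbours.

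Motor neuron and acetylcholine genes gave 3 clusters of 2 regions each. The windows near Lhx3 itself, near Acly, whose enzyme makes the acetyl-CoA used for acetylcholine, and in Isl1 itself are shown because of these genes. Those in Isl1 have no core at all.
Lhx3, chr2:26042167-26042366, plus strand, ChIP score 62.9: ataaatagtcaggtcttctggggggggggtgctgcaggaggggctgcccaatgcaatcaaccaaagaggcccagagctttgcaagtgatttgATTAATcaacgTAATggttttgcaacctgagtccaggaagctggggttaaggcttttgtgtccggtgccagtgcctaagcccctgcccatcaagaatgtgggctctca
Lhx3, chr2:26050215-26050414, plus strand, ChIP score 162.46: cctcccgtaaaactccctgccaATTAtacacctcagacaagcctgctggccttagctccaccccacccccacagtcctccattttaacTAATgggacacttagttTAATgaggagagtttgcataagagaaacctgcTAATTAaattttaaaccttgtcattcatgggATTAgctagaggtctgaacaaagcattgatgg
Acly, chr11:100379527-100379726, plus strand, ChIP score 47.91: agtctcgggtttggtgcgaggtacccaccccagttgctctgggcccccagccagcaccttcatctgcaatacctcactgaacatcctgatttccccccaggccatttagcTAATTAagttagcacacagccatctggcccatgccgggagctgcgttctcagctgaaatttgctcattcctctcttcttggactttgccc
Acly, chr11:100382116-100382315, plus strand, ChIP score 61.56: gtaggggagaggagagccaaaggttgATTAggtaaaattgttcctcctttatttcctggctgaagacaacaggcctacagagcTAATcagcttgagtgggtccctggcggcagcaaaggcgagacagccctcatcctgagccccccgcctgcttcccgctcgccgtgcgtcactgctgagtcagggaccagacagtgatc
Isl1, chr13:117091801-117092000, plus strand, ChIP score 61.56: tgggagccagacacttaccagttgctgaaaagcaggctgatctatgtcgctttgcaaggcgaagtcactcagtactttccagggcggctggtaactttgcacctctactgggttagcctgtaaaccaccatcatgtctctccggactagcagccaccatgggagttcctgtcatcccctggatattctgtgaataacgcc
Isl1, chr13:117093354-117093553, plus strand, ChIP score 39.61: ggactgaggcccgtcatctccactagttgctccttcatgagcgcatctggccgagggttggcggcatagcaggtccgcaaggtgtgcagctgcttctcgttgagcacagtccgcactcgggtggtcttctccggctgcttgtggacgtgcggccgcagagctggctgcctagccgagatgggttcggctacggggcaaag

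Near Lhx3, the stronger region scored 162.46 in the ChIP and 1.81 in the background, from 109 tags (89.5 to 131, exact 95% Poisson interval). It was the strongest of all clustered peaks and ranked 17 among kept peaks. It lay 8.07 kb downstream of the Lhx3 start in intergenic sequence and held 6 cores, TAATTA among them. Its neighbour, 8.048 kb away, lay in an exon of the noncoding gene Gm13553 at 16.12 kb from the Lhx3 start, with a score of 62.9, 47 tags, 3 cores and no TAATTA.

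In Acly, both regions lay in introns, at 5.286 and 2.697 kb from the start. The stronger, nearer the start, scored 61.56 from 49 tags, against a background of 0, and held no TAATTA. The weaker, with TAATTA, scored 47.91 from 32 tags, against a background of 2.05.

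Each maximum of the Isl1 pair lay in a coding exon, as did 3 of 261 clustered peaks in all (1.15%), beside 0.782% of all kept peaks. The first region (score 61.56, 30 tags) was 263 bp long and held a whole coding exon of 168 bp, and the second (39.61, 32 tags) was 385 bp long and held a whole coding exon of 287 bp. Coding bases thus made up 63.9% and 74.5% of the regions. Neither window had an ATTA core, which 20 of 261 clustered windows (7.66%) lacked, beside 5.48% of all kept windows. Isl1 coding bases are part of the transgene as well, whose part in these tags was not tested. The other clustered maximum in a coding exon, in Ccs, lay in a region of 448 bp of which 30.8% was coding.

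Most clusters were pairs. There were 110 clusters of 2 regions, 9 of 3, 2 of 4 and 1 of 6, so that 12 of 122 (9.84%, 5.19 to 16.6, exact binomial 95% interval) held 3 or more. Maxima of neighbours were a median of 3.85 kb apart, with quartiles of 1.687 and 6.661 kb and a range from 0.373 to 9.982 kb. The edges of neighbouring regions were a median of 3234 bp apart. In 18 of 139 neighbour pairs (12.9%) the gap between regions was under 500 bp, and the smallest was 14 bp. Whether such close regions are parts of 1 broader region that the peak caller divided was not tested.

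**Figure D1:**
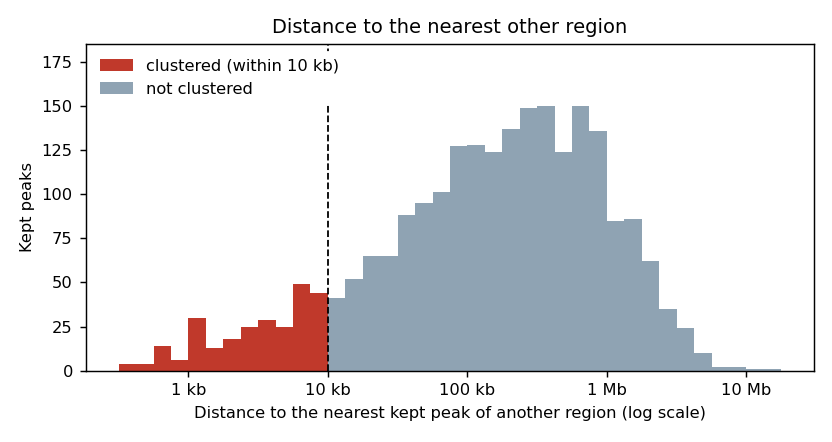
Histogram of the distance from each kept peak to the nearest kept peak of another region (x axis, log scale) against the number of kept peaks (y axis), with clustered peaks in red and the 10 kb rule as a dashed line. The 261 clustered peaks form the lower tail of a broad distribution with a median of 179.3 kb, and no gap separates them from the 2040 others.

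The rule cut through a continuous range of distances. Just inside it were neighbours near Ccnh (9982 bp apart, scores 32.12 and 34.79), in Dapk1 (9909 bp, 43.36 and 35.6) and near Nfkbia (9760 bp, 32.39 and 39.08). Ccnh encodes a cyclin, Dapk1 a death-associated kinase and Nfkbia an inhibitor of NF-κB. Just outside lay neighbours in Slc25a13 (10363 bp, 36.67 and 32.65), near Atl2 (10638 bp, 32.39 and 45.23) and in Abat (10891 bp, 35.6 and 31.85). The scores just inside and just outside covered a similar range. The motor neuron genes Mnx1 and Chat had kept peaks that were not clustered. Both were chosen later as examples, outside the rules for naming genes.

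**Figure D2:**
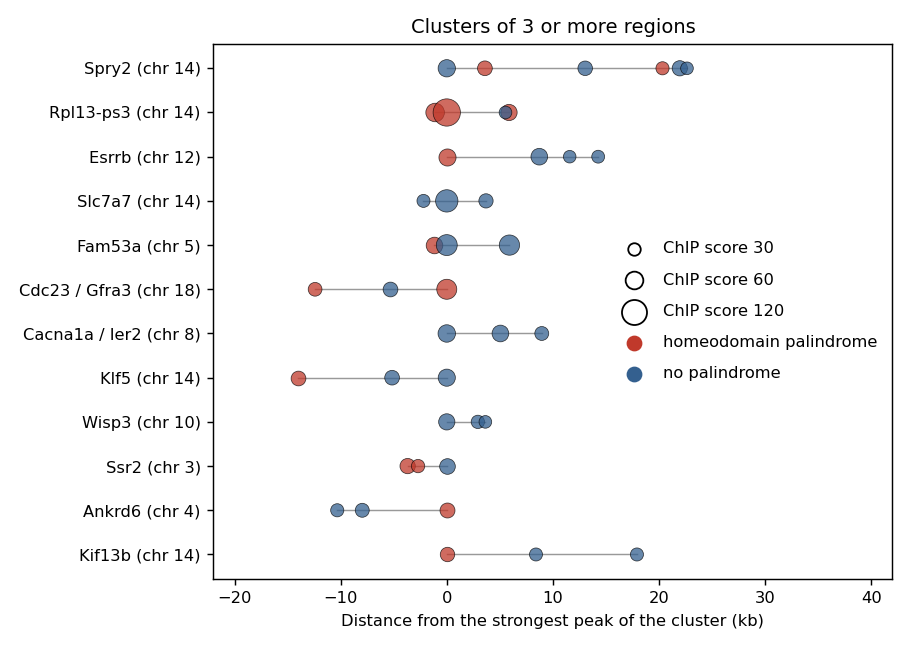
Map of the 12 clusters of 3 or more regions, named by the nearest protein-coding gene, with the distance of each maximum from the strongest peak of its cluster on the x axis (kb, in genome order), the area of a circle proportional to the ChIP score, and red where the 200 bp window held TAATTA. The Spry2 cluster spans 22.64 kb, and 9 of the 12 clusters hold at least 1 red circle.

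In Esrrb, a nuclear receptor gene of the pluripotency network, 4 regions lay in introns over 14.27 kb. Their scores in genome order were 56.21, 53.53, 30.51 and 31.85, with 41, 37, 23 and 23 tags. They lay at -14.06, -5.336, -2.472 and 0.213 kb from the nearest Esrrb start (negative is upstream), so the strongest was the farthest from it. Only that peak held TAATTA. The background score was 0 at 3 of the 4 and 2.43 at the third.

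At Klf5, another pluripotency factor, 3 intergenic regions lay 41.52, 50.38 and 55.53 kb downstream of the start, with a U2 RNA gene nearer. Their scores were 41.75, 41.49 and 56.47. The first had the longest region of any clustered peak (1891 bp) and 111 tags, whereas the strongest by score had 34 tags. Score and tag count thus ordered these regions differently.

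At Spry2 the scores in genome order were 57.54, 41.75, 40.68, 33.19, 44.7 and 30.78, with 45, 33, 48, 38, 52 and 21 tags. The distances from the Spry2 start ran from 58.3 to 35.67 kb, and for the first 3 regions the start of AC140340.1 was nearer. Apart from the first, no score in the cluster was in the highest 25% of kept peaks (54.6 or more).

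Clusters of 3 regions lay at varied genes. At Slc7a7, an amino acid transporter gene, they straddled the annotated starts at -0.509, 1.855 and -1.841 kb, with scores of 32.65, 95.82 and 39.08, and none held TAATTA. The cluster assigned to Fam53a lay over 70 kb from that start and had 3 scores above 50 (52.99, 84.04 and 78.69), with 24, 95 and 93 tags. The cluster between Cacna1a, a calcium channel gene, and Ier2, an immediate early gene, had 58.62, 53.53 and 37.2 without TAATTA. At Gfra3, which encodes a GDNF-family co-receptor for artemin, an intronic region of score 76.82 and an intergenic one of 41.75 lay 28.1 and 33.41 kb from the start, and the other region (36.4) was nearer to Cdc23, a subunit gene of the anaphase-promoting complex.

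Weaker clusters of 3 lay at Wisp3 (50.59, 34.26 and 30.78), Ssr2 (44.97, 34.26 and 47.11), Ankrd6 (33.19, 37.47 and 43.09) and Kif13b (40.15, 32.65 and 32.92). Kif13b encodes a kinesin motor, Ssr2 a subunit of the translocon-associated complex, and Wisp3 a matricellular protein. Across the 9 clusters of 3, the strongest score had a median of 56.47 (range 40.15 to 95.82). In the pairs its median was 52.99 (range 30.78 to 162.5). Chromosome 14 held 5 of the 12 clusters of 3 or more, with 19 of their 41 peaks. It held 12 of all 122 clusters and 170 of the 2301 kept peaks, and the difference was not tested.

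Of the 10 strongest clustered peaks, all but the SNORA17 peak lay in pairs. Behind the Lhx3 peak came a peak in an untranslated region of Palm2 near Akap2, an anchoring protein gene for protein kinase A (153.63, neighbour 73.87, 2.136 kb away), and the SNORA17 peak (142.92). The peak nearest to Sgk1 by coding genes, in an intron of Gm6846, had 137.3, the largest tag count of any clustered peak (190, 164 to 219, exact 95% Poisson interval) and 2 TAATTA, with a neighbour of 36.4 that also had TAATTA. Sgk1 encodes a serum- and glucocorticoid-regulated kinase.

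Both neighbours with Myof as nearest gene were strong (108.4 and 129.01), with a background score of 0 at each. They lay 165.6 and 161.8 kb from its start. Smarcal1, which encodes a DNA-annealing helicase, had 125.26 beside 41.22. An intergenic peak of 121.25 lay 25.59 kb from the start of Gm5913, its nearest gene, beside 46.57. Its nearest coding start, that of 1700047G07Rik, was 891.2 kb away. At Lpar6, a lysophosphatidic acid receptor gene inside an intron of Rb1, 118.03 lay at -0.025 kb from the start, beside 54.87. Olfml2a was the nearest coding gene of an intergenic peak of 115.62, at 32.47 kb from its start, beside 34.26, only 0.714 kb away. The nearest start of any gene to the stronger peak was that of Gm13474, at -9.495 kb. Pknox2, a TALE homeobox gene, had 114.55 beside 32.65 in its introns. None of the 10 strongest kept peaks was clustered, and 5 of the 50 strongest were, beside 11.3% of all kept peaks. Counts this small show no difference from that share.

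**Figure D3:**
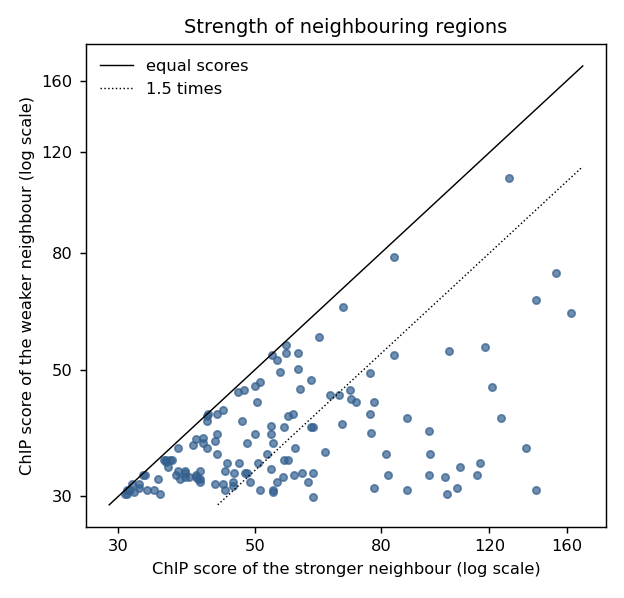
ChIP score of the stronger (x axis) against the weaker (y axis) of each of 139 neighbour pairs, both on log scales, with lines for equal scores and for a ratio of 1.5. Of the 139 pairs, 88 lie between the lines, and the strongest peaks at the right mostly have a neighbour under 80. Unrelated kept peaks were not paired for comparison.

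Neighbours differed in strength by a median of 1.329 times (quartiles 1.083 and 1.715, highest 4.643). In 88 of 139 neighbour pairs (63.3%, 54.7 to 71.3) the scores were within 1.5 times of each other. Scores of all kept peaks began at 29.98 and had quartiles of 34.53 and 54.6, so unrelated peaks would often be this close too. Their share was not computed, so nothing is read from that of the neighbours. The largest ratio was within the SNORA17 cluster, between 142.92 and 30.78. At least 1 score in the highest 25% was found in 57 of 122 clusters (46.7%), and in 7 (5.74%) every score was. Each cluster holds 2 or more peaks, so neither share compares directly with the 25.1% of all kept peaks that had such a score.

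As a group the clustered peaks were about as strong as the rest. Their ChIP score had a median of 41.49 (quartiles 33.72 and 54.87), against 41.22 for the 2040 others (34.53 and 54.6). A score in the highest 25% was found in 66 of 261 (25.3%), beside 25.1% of all kept peaks. Tags had a median of 32 against 30. Regions had a median length of 461 bp against 467.5 bp. The background score was 0 at 68 of 261 (26.1%, 20.8 to 31.8), beside 30.7% of all kept peaks, and at least 10% of the ChIP score at 8 (3.07%), against 5.49% of the others.

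Several maxima within a region were more common among them by count: 29 of 261 clustered regions (11.1%, 7.57 to 15.6) had 2 or more maxima, beside 5.87% of all kept regions and 5.2% (4.27 to 6.25) of those not clustered. Both measures come from the same peak call that defined the clusters, so no test was made. Within a cluster, the strongest peak had a median region length of 548 bp and the others 412 bp, beside 467 bp for all kept regions. These groups were set apart by ChIP score, so the difference in length is a description of that split.

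The position of clustered peaks against genes was close to that of the rest. Introns held 117 of 261 (44.8%, 38.7 to 51.1), beside 44.9% of all kept peaks, and intergenic sequence 133 (51%). Within 5 kb of a transcription start lay 78 (29.9%, 24.4 to 35.8), beside 26.8% of all kept peaks. Fewer clustered peaks lay over 100 kb from any start, 14 of 261 (5.36%, 2.96 to 8.84) against 10.5% (9.24 to 12) of those not clustered. This difference was not tested, since peaks of 1 cluster share their surroundings.

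Peaks of 1 cluster mostly shared their nearest gene: 111 of 122 clusters (91%, 84.4 to 95.4) had the same nearest gene for all peaks, and 115 (94.3%) with protein-coding genes alone. A transcription start lay between the outermost maxima of 18 clusters (14.8%). In 107 clusters (87.7%) every peak lay in the same kind of location. With maxima under 10 kb apart, sharing follows in large part from the rule. In the 109 pairs with unequal scores, the stronger peak was the nearer to its nearest start in 55 (50.5%, 40.7 to 60.2).

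The peaks of 7 clusters had different nearest coding genes. In 1 of them, a region of score 102.24 with 135 tags and TAATTA lay near Ooep, an oocyte and early embryo gene, 3.117 kb from a region of 30.24 near Dppa5a, a pluripotency marker. A pair of 29.98 and 62.09 lay -11.95 and -4.883 kb from Mir290, the first gene of a microRNA cluster expressed in embryonic stem cells, and the stronger held the octamer ATGCAAAT, bound by POU factors. Mir290 was chosen after its values were seen.

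Of 14 gene lists (289 annotated genes), 7 had a member nearest to a clustered peak. Over all genes, 160 of the 2290 that were nearest to any kept peak were also nearest to a clustered one (6.99%). For the lists the counts were 2 of 9 motor neuron transcription factors (Isl1 and Lhx3), 3 of 14 pluripotency genes (Klf5, Esrrb and Dppa5a), 1 of 7 cholinergic genes (Acly), 1 of 5 motor column and pool genes (Gfra3), 1 of 4 LIF and JAK-STAT genes (Pim1), 1 of 7 FGF and Sprouty genes (Spry2) and 1 of 3 Notch genes (Rbpj). The lists were made with earlier results of these data known, so nothing is read from these shares.

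Axon guidance genes had no clustered peak although 16 of them were nearest to a kept peak, for which a count of 0 allows a share of up to 18.8%, taken as 3 counts. Spinal interneuron factors (6 genes with a kept peak) and housekeeping genes (5) also had none, with limits of 50% and 60%. Glia (3) and the retinoic acid pathway (2) had none either, at numbers that set no limit. Skeletal muscle and blood genes had no kept peak.

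Pim1, a kinase gene induced by STAT signalling, had 4 clustered peaks in 2 pairs upstream. The farther pair, at -53.74 and -52.2 kb, had a score of 31.58 at both peaks and 34 and 19 tags, with no TAATTA. The nearer pair, at -23.19 and -17.81 kb in introns of Gm16912, had 57.81 and 32.65 with 30 and 18 tags, and both windows held TAATTA. Neither pair held a relaxed STAT site. Rbpj, the DNA-binding factor of Notch signalling, had 33.46 and 30.78 at -2.741 and -0.133 kb, both without TAATTA.

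Homeodomain sequence was far more frequent in clustered windows than beside them. TAATTA was found in 86 of 261 windows of 200 bp (33%, 27.3 to 39), beside 34.5% of all kept peaks, and in 38 of 522 windows 1 kb to each side of the clustered maxima (7.28%, 5.2 to 9.86). At the other peaks it was 34.7% (32.6 to 36.8), an interval that overlaps that of the clustered ones. Some flanks of closely spaced peaks reach into a neighbouring region. The centre of the nearest TAATTA lay a median of 23.5 bp from the maximum, against 25.5 bp at other peaks. The palindrome AATATT, of the same bases in another order, was in 6 clustered windows (2.3%) and 49 of the 522 flanks (9.39%). ATTA was in 241 windows (92.3%) and 66.3% of flanks. Over all kept peaks, windows and flanks had TAATTA in 34.5% and 6.63%, AATATT in 1.83% and 7.24%, and ATTA in 94.5% and 67%. The contrast with flanks was thus shared by the whole list.

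**Figure D4:**
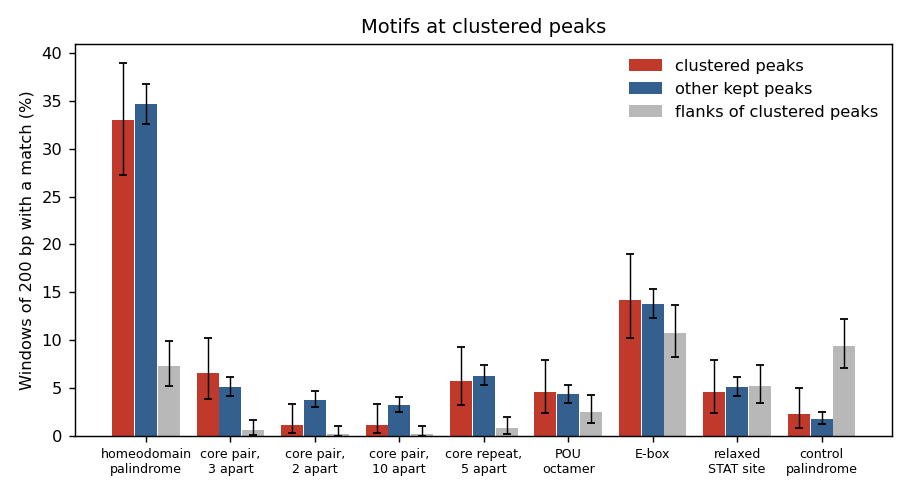
Share of 200 bp windows with a match to each motif (y axis, percent) at clustered peaks (red), other kept peaks (blue) and flanks of clustered peaks (grey), with exact binomial 95% intervals as bars that cover counting error only. Red and blue intervals overlap at every motif, the homeodomain palindrome stands at 33% of clustered peaks against 7.28% of their flanks, and the control palindrome, AATATT, is lower in peaks than in flanks.

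Pairs of cores differed by spacing. ATTA followed by TAAT with 3 bases between was in 17 clustered windows (6.51%, 3.84 to 10.2) and in 5.05% (4.14 to 6.09) of other peaks. With 2 bases between it was in 3 (1.15%, 0.238 to 3.32) against 3.77% (2.99 to 4.7), and with 10 bases in 3 (1.15%) against 3.24% (2.51 to 4.1). A TAAT repeated in the same direction with 5 bases between was in 15 (5.75%) against 6.27%. The lower shares at 2 and 10 bases rest on 3 windows each and were not tested.

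The other motifs were near the rest of the list. ATGCAAAT was in 12 of 261 (4.6%), beside 4.35% of all kept peaks. The E-box CAGCTG was in 14.2% against 13.8% of other peaks, and the Onecut site (ATCGAT or ATTGAT) in 11.5% against 11.2%. The SOX site ATTGTT was in 12.3% against 14.5%. For the relaxed STAT site TTCNNNGAA the count was 12 of 261 (4.6%, 2.4 to 7.89), beside 5.0% of all kept peaks and 5.17% of the flanks. The strict site TTCCNGGAA was in 0 of 261, which allows a share of up to 1.15% taken as 3 counts and up to 1.4% by the exact binomial interval, and in 0.882% of other peaks.

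TAATTA was more often in 1 window of a pair than in both. Its share of 34.5% over all kept peaks gives that order by itself for unrelated windows. Among the 110 pairs, both windows held it in 10 (9.09%, 4.45 to 16.1), 1 of the 2 in 52 (47.3%) and neither in 48 (43.6%). Beside a window with TAATTA, the other window held it in 20 of 72 cases (27.8%), and beside a window without it in 52 of 148 (35.1%). Both members of a pair are counted, so the cases are not independent and no interval is given. Over all 122 clusters, TAATTA was in every window of 10, in some of 61 and in none of 51 (41.8%). The 10 with TAATTA throughout included the Pim1 pair at 57.81, Sgk1, and pairs in Zfyve1 (63.43 and 57.01) and near Ranbp9 (46.04 and 47.91), the last chosen after their values were seen. The strongest peak of a cluster held it in 36.9% (45 of 122, 28.3 to 46.1) and the others in 29.5% (41 of 139, 22.1 to 37.8), intervals that overlap.

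Few neighbours shared longer stretches of sequence. In 135 neighbour pairs whose 500 bp windows did not overlap, the longest exact match on either strand had a median of 10 bases, and 6 (4.44%) shared 15 or more. The 3 longest matches are shown because the same bases occur in both windows, where a tag cannot be placed by those bases alone. Cores are not in capitals here, although the Klf6 match holds TAAT and the A530053G22Rik match holds ATTA.
Klf6, chr13:5689577-5689620 and chr13:5696802-5696845, plus strand: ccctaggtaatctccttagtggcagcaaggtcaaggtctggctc
A530053G22Rik, chr6:60357170-60357212 and chr6:60360704-60360746, plus strand: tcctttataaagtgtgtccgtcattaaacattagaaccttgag
Fgf12, chr16:28038092-28038127 and chr16:28039065-28039100, plus strand: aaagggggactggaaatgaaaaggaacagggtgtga

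The match of 44 bases lay under regions of score 42.56 and 44.43, -171.2 and -163.9 kb from Klf6, their nearest gene. At A530053G22Rik the match of 43 bases lay under 32.39 and 101.44. That of 36 bases lay under 32.39 and 38.54, at 360.6 and 359.5 kb from Fgf12, their nearest gene. TAATTA was in none of the 200 bp windows of these regions. How tags over repeated bases were placed is not stated in the labels. The other closest neighbours, near 2310044H10Rik (387 bp apart, 30.78 and 31.31) and Slc3a2 (458 bp, 39.61 and 36.94), had overlapping 500 bp windows.

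**Figure D5:**
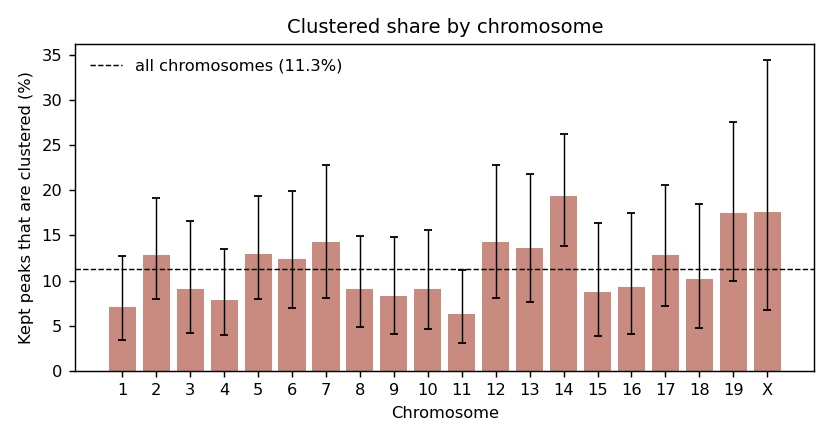
Share of kept peaks that were clustered on each chromosome (y axis, percent) with exact binomial 95% intervals, and the share over all chromosomes as a dashed line. Chromosome 14 is highest at 19.4%, chromosome 11 lowest at 6.25%, and most intervals include 11.3%.

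Chromosome 14 held 33 clustered peaks of 170 (19.4%, 13.8 to 26.2) in 12 clusters. Chromosome 11, with nearly as many kept peaks, had 10 of 160 (6.25%, 3.04 to 11.2). On chromosome X, 6 of 34 were clustered, with an interval from 6.76% to 34.5%. A peak is clustered only together with a neighbour, so these intervals, which treat peaks as independent, are too narrow. Chromosomes 14 and 11 are named as the highest and lowest shares, and no difference between chromosomes was tested.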

How the data were processed

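Flag ChIP-seq of 4 libraries (2 with Dox, 2 without) was available as 1 list. The members and gene lists were chosen with earlier results of these data known. Alignment used BWA 0.5.8a and genome build mm9 (NCBIM37), per the submitters' processing notes. No label or header names the peak caller, its threshold or any pooling. The authors deposited a ChIP score and a background score per peak, on no stated scale, and a count of tags per region. No value per library is given, so replicate error could not be measured, no libraries were compared, no paired fit was made and no p-value is given. Intervals are 95% and cover counting error only.

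Of 2455 peaks, 1 mitochondrial peak was left out, which left 2454. The peak of highest score was kept per region (2301), and neighbours within 10 kb were joined into clusters. Genes came from GENCODE M1 on NCBIM37 (37273 genes, 22367 protein-coding), assigned by the nearest transcription start. Symbols matched for 289 of 293 list genes. Motifs were exact matches on either strand in 200 bp centred on the maximum, and in windows centred 1 kb to each side, for 13 motifs. The distance rule and the motif search were tested on simulated data. Sequences were read with pysam 0.24.0, and intervals computed with scipy 1.17.1.

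Named are the 10 clusters with most regions (ties by highest score; Ankrd6 and Kif13b, tied at 3 regions, were added later), the 10 strongest members, the 3 closest neighbours, those at the edge of the rule, list genes, and the 3 longest shared matches, beyond others said to be chosen later. Alternatives were other distances, subsets of peaks, region edges, chromosome 14 left out, coding genes, other windows, tags and, added after the data were seen, joined regions.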

Additional observations from a re-analysis of the deposited data

Results flagged for a closer look

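The peak on the mitochondrial genome lies outside the comparisons above and was picked out because it is a signal with no use in them. It had 34 tags, a score of 46.57 in the ChIP and of 11.19 in the background.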

How the results depend on the processing

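Of 94 alternative values for 12 results, 78 stayed within the interval of the reported value (or, for counts, within 1.5 times) and 16 moved. Within 5 kb there were 155 clustered peaks (6.74% of kept peaks) in 75 clusters, with a median spacing of 2.05 kb and 96% of clusters sharing a nearest gene. Within 20 kb the share was 16.5% and the spacing 6.62 kb. Among the 1150 kept peaks with the highest scores, 79 were clustered (6.87%) in 38 clusters, with a median score of 53.5. These shifts follow from the rule or the subset. With motif windows of 100 or 500 bp, TAATTA was in 25.7% or 40.6% of clustered peaks and the relaxed STAT site in 1.15% or 10.7%, as shorter and longer windows hold fewer and more matches. The median by tags was 32, in another unit than the score, so that its move says nothing of stability. Joining regions less than 500 bp apart, added after the data were seen, left 231 clustered peaks in 110 clusters. Leaving out chromosome 14 left 228 in 110, of which 7 had 3 or more regions. No library could be left out, and no paired analysis was possible because the list has no value per library. Depth per library is unknown.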
